A study of Mus musculus with 6 samples.

Results

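The immediate early genes described here are 10 genes (Fos, Fosb, Jun, Junb, Egr1, Nr4a1, Zfp36, Dusp1, Ier2 and Ier3), taken by name as every probe set whose only gene symbol in the platform annotation is one of them. That gave 11 of the 45101 probe sets on the array, 2 for Jun and 1 for each other gene, and 10 of the 8893 genes that were tested. Most of them read lower in intestinal epithelial preparations from mice lacking the enzyme GGTase-I than in those from control mice, but none passed the threshold over all genes. The mean was lower in the deficient group for 9 of the 10, as for 54.6% of all genes tested, with log2 changes from -1.67 for Fosb to 0.072 for Ier3 and a median of -0.86, beside a median of -0.043 over all genes tested. With limma 0 of the 10 had an adjusted p below 0.05, where 2.09% of all genes tested did (1.98% lower and 0.112% higher in the deficient arrays). At an unadjusted p below 0.05, 7 of the 10 were lower and 0 higher, where 11.3% and 5.6% of all genes were. The groups did not overlap for 6 of the 10 (Fos, Junb, Egr1, Nr4a1, Zfp36 and Ier2), lower in the deficient arrays each time, where 16.7% of all genes had that pattern.

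The study measured total RNA from epithelial cells of the intestine on Affymetrix arrays, 1 per mouse, with 3 mice in each group and a mixed 129/SV and C57BL/6 background throughout. All 6 mice had a floxed gene for the beta subunit of the enzyme (written Pggt-Iβ in the labels, Pggt1b on the array), and all received 1 mg of tamoxifen on each of 3 days, with cells taken on day 6 from the start. The control group was negative for VillincreERT2, a recombinase that tamoxifen activates and that the villin promoter drives in gut epithelium, and the deficient group was positive for it. Recombinase and deletion therefore came together in this design, while the labels do not state age, sex or gut segment. The Pggt1b probe set with the highest signal read 9.30, 9.55 and 9.33 in control replicates 1, 2 and 3 and 9.75, 8.88 and 8.83 in deficient replicates 1, 2 and 3. Deficient replicate 1 was the highest of the 6 arrays on this probe set, and on another it read 6.51 against 5.72 to 6.26 in the controls. A further probe set read 8.20, 8.03 and 8.37 in the controls and 8.31, 8.44 and 7.89 in the deficient mice, highest in deficient replicate 2. The remaining probe set read below 5 on every array. Where the probes lie relative to the deleted part is not given, so the labels alone set every direction below. Without deficient replicate 1, 0 of the 10 early genes passed with limma either, and the median of their changes was -1.08.

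Immediate early genes are switched on within minutes of a stimulus, without new protein synthesis, because the factors that drive them are already made. Serum response factor (SRF) binds the CArG box and works with ternary complex factors such as Elk3, which answer to ERK kinases, or with the MRTF coactivators, which answer to actin. CREB acts at cyclic AMP response elements at many of the same genes. The products are short-lived transcription factors such as the Fos and Jun subunits of AP-1, and feedback proteins that end the response, and the isolation of cells is itself a known stimulus.

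The promoters of Egr1 and Ier2 were not examined, so nothing below describes them. RefSeq promoter windows (build GRCm38.p6) were scanned for the other 8 of the 10 genes. The 250 bases before the start site are shown for 6 of these genes and for Srf, because they hold the letters that SRF, CREB and the EGR factors are known to bind. The windows lie at chr12:85473640-85473889 on the plus strand for Fos, chr7:19310046-19310295 on the minus strand for Fosb, chr8:84978749-84978998 on the minus strand for Junb and chr15:101266596-101266845 on the plus strand for Nr4a1. Those of Zfp36, Dusp1 and Srf lie at chr7:28379229-28379478, chr17:26508473-26508722 and chr17:46556163-46556412, all on the minus strand. Each is written 5′ to 3′ along the gene's strand, and capitals mark a CArG box, the core TGACG of the cyclic AMP response element, or the EGR site GCGGGGGCG, on either strand.
Fos: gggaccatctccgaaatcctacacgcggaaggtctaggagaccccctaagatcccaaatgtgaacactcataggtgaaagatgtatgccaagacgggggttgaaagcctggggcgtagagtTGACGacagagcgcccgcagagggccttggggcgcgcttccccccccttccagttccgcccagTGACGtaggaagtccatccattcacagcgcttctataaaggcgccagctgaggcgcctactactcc
Fosb: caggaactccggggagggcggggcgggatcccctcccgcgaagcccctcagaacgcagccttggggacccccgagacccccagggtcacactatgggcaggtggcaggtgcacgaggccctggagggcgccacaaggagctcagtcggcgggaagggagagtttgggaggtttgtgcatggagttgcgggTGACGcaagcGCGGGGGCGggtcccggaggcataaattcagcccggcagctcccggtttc
Junb: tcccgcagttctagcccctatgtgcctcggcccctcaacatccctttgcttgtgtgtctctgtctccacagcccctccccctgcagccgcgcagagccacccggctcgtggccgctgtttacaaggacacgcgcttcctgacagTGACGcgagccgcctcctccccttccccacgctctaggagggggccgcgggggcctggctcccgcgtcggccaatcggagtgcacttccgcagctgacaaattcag
Nr4a1: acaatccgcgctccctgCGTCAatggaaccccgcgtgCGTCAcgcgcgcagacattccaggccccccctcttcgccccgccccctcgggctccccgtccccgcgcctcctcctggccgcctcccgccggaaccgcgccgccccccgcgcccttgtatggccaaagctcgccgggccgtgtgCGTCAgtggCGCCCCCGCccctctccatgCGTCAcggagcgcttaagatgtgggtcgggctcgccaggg
Zfp36: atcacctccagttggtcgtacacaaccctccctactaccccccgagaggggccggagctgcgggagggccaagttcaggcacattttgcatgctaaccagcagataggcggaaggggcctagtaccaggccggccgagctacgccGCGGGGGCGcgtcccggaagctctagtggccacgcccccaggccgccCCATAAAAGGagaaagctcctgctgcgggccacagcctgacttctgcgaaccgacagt
Dusp1: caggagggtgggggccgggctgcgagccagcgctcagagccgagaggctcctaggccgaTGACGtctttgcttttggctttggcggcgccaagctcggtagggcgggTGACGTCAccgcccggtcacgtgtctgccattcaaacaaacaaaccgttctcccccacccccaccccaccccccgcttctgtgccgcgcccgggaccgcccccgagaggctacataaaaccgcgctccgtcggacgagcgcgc
Srf: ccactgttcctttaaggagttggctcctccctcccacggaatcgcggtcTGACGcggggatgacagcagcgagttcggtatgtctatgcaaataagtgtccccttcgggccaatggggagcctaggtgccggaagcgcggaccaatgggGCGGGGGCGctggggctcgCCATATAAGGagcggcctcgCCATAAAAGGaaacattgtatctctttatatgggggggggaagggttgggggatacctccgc

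The core TGACG was present in 5 of the 8 windows (Fos, Fosb, Junb, Nr4a1 and Dusp1), and in 17.8% of the 32851 windows of this length in the table. In Dusp1 it formed part of a full TGACGTCA, which 1.55% of all windows hold, so these matches overlap. The EGR site was present in 3 of the 8 (Fosb, Nr4a1 and Zfp36) and in 2.57% of all windows. A CArG box was present in Zfp36 alone among the 8, as CCATAAAAGG at 58 to 49 bases before the start, and in 1.47% of all windows. Srf itself held 2, CCATATAAGG at 82 to 73 bases and CCATAAAAGG at 62 to 53 bases before the start. The AP-1 letters TGANTCA were in 0 of the 8 windows and in 6.75% of all. Only this form of the AP-1 site was scanned. It cannot match the letters TGACATCA, which the Jun window, not shown here, holds. The 8 windows had a GC content of 54.4% to 74.4%, all above the median of 52.4% over all windows, and the shares were not matched for it. They describe letters in these 250 bases and not binding. Sites outside this stretch were not scanned, so a motif missing here can still lie further from the start.

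The AP-1 subunits were led by Junb and Fosb. Fos, the subunit that pairs with Jun proteins to form AP-1, read 14.66, 14.35 and 14.65 in control replicates 1, 2 and 3 and 14.31, 13.99 and 13.98 in deficient replicates 1, 2 and 3 (log2, as for all levels here). All deficient arrays lay below all controls, but by only 0.040 at the nearest pair. The change, deficient minus control, was -0.46 ± 0.18 (SE of the limma fit, as for all changes below) with a limma adjusted p of 0.273. Fosb, its paralog, read 10.44, 8.52 and 10.05 in the controls and 8.57, 7.88 and 7.55 in the deficient mice. Control replicate 2 lay within the deficient range, and the 2 other controls stood above every deficient array. The control mean was 9.67 ± 1.01 (SD, n = 3) and the change -1.67 ± 0.52, or 3.19-fold lower, with a limma adjusted p of 0.197. Without control replicate 2 the change was -2.25 and the limma adjusted p 0.0427, the 1 case in which leaving out an array brought one of the 10 genes past the threshold.

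Junb, a Jun protein that often restrains Jun, came closest to the threshold with all arrays in place. It read 10.84, 10.24 and 10.74 in the controls and 9.76, 9.56 and 9.38 in the deficient mice. The lowest control stood 0.48 above the highest deficient array, the widest gap of the 10 genes. Group means of 10.61 ± 0.32 and 9.57 ± 0.19 (SD, n = 3) gave a change of -1.04 ± 0.22, or 2.05-fold lower, with a limma adjusted p of 0.0761. Jun, the founding subunit, read 14.57, 14.11 and 14.47 in the controls and 14.61, 13.81 and 13.80 in the deficient mice. Deficient replicate 1 was the highest of the 6 arrays and the other two deficient arrays were the lowest. The change was -0.31 ± 0.27 (limma adjusted p = 0.573), and -0.58 without deficient replicate 1. The second Jun probe set read 11.35, 11.05 and 11.16 in the controls and 11.23, 10.34 and 10.46 in the deficient mice, a change of -0.51. It too had deficient replicate 1 within the control range and the other two below it.

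Both other transcription factors read lower in the deficient mice, with groups that did not overlap. Egr1, a zinc finger factor and one of the best known SRF targets, read 14.55, 14.03 and 14.28 in the controls and 14.01, 12.94 and 13.35 in the deficient mice. Deficient replicate 1 and control replicate 2 differed by only 0.017, so the separation rests on a narrow margin. The change was -0.85 ± 0.30 with a limma adjusted p of 0.235, and ranged from -1.14 to -0.60 when 1 array was left out. Nr4a1, an orphan nuclear receptor also called Nur77, read 11.17, 9.63 and 9.67 in the controls and 9.18, 8.24 and 8.30 in the deficient mice. All deficient arrays lay below all controls by at least 0.45, and the controls were spread over 1.54 because replicate 1 stood above the other two. The change was -1.58 ± 0.47, or 2.99-fold lower, with a limma adjusted p of 0.185, and it was -1.07 without control replicate 1.

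Among the feedback regulators, Zfp36 separated the groups and Dusp1 did not. Zfp36 encodes tristetraprolin, which binds AU-rich elements and speeds the decay of cytokine and early gene mRNAs. It read 13.93, 13.47 and 13.84 in the controls and 13.16, 12.69 and 12.77 in the deficient mice. All deficient arrays lay below all controls by at least 0.32, and spread alike in both groups. Means of 13.75 ± 0.24 and 12.87 ± 0.25 (SD, n = 3) gave a change of -0.88 ± 0.21, or 1.84-fold lower, with a limma adjusted p of 0.117. Dusp1, a phosphatase that switches off MAP kinases, read 12.86, 12.69 and 12.63 in the controls and 12.84, 11.97 and 11.95 in the deficient mice. Deficient replicate 1 lay within the control range while the other two lay below it. The change was -0.47 ± 0.27 (limma adjusted p = 0.405), and -0.77 without that array.

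Of the immediate early response genes, Ier2 separated the groups and Ier3 did not. Ier2, a nuclear protein of the fast response, read 13.32, 12.25 and 12.85 in the controls and 12.03, 11.59 and 11.70 in the deficient mice. The groups were separated by 0.22, and the control arrays were spread over 1.08. The change was -1.03 ± 0.29, or 2.05-fold lower, with a limma adjusted p of 0.170. Ier3, a regulator of cell survival, read 9.79, 9.54 and 9.52 in the controls and 10.36, 9.68 and 9.02 in the deficient mice. Here the deficient arrays lay on both sides of the controls and were spread over 1.34, against 0.27 in the controls. The change was 0.072 ± 0.33 with a limma adjusted p of 0.924, and its sign turned without deficient replicate 1 (-0.27) and with array weights (-0.070).

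**Figure D1:**
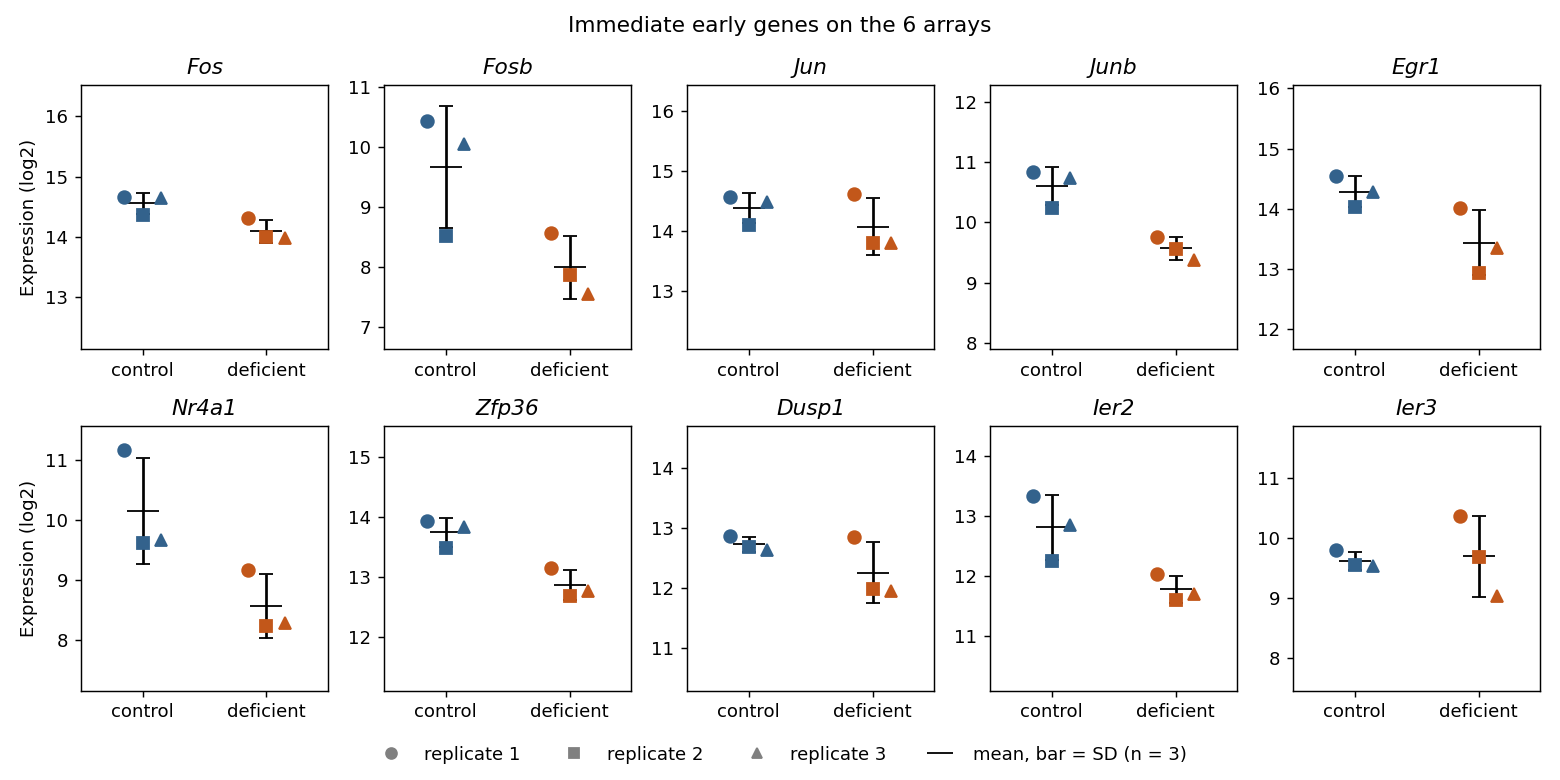
Expression (log2, every panel spanning the same range) of the 10 immediate early genes on each array, with circles, squares and triangles for replicates 1, 2 and 3, a dash for the group mean and a bar for the SD (n = 3). Replicate 1 is the highest array of both groups in every panel, and the groups do not overlap for Fos, Junb, Egr1, Nr4a1, Zfp36 and Ier2.

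The 95% intervals of these changes, not adjusted for the number of genes, lay below 0 for 7 of the 10 and ran from -2.90 to -0.44 for Fosb and from -1.55 to -0.53 for Junb. For Jun, Dusp1 and Ier3 they included 0, with lower bounds of -0.95, -1.11 and -0.72. For Jun and Dusp1 the interval thus reached past the change measured for Zfp36. An exact two-sided permutation test of each gene over the 6 arrays gave p = 0.1 for the 6 genes whose groups did not overlap, the smallest p that 3 against 3 arrays allow, and 0.2 to 0.8 for the others.

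**Figure D2:**
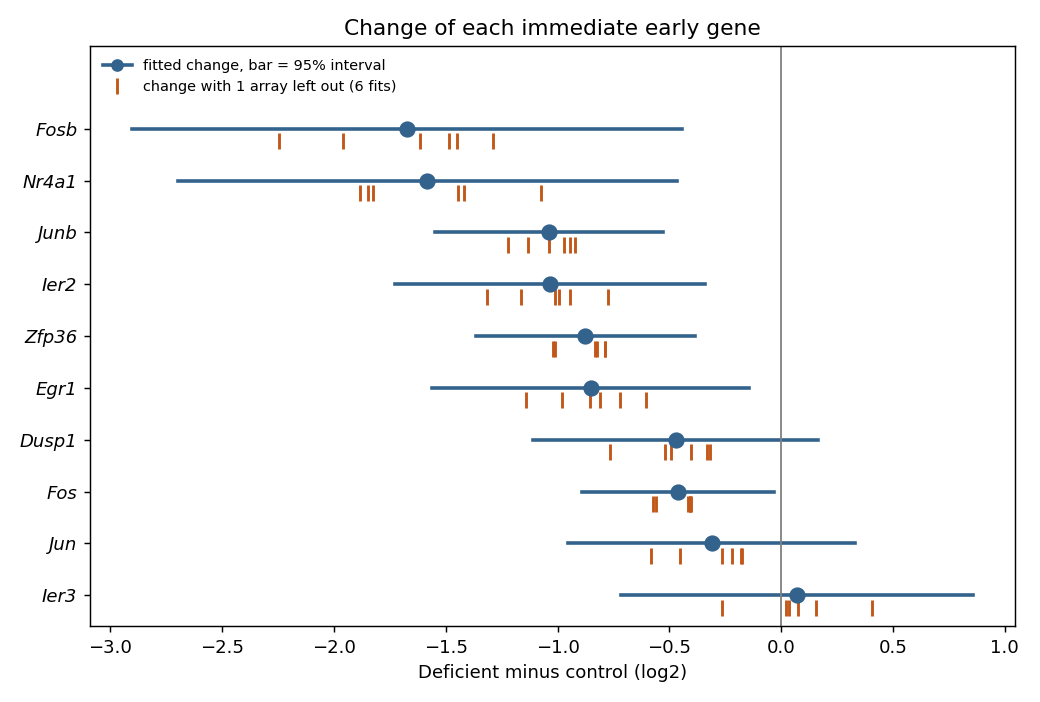
Fitted change of each immediate early gene (deficient minus control, log2), with the 95% interval as a bar and, under it, the change in each of the 6 fits that left out 1 array. The points of 9 genes lie below 0, and only Ier3 has ticks on both sides of 0.

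The 10 genes varied together within each group. Control replicate 1 was the highest control for 10 of 10 and deficient replicate 1 the highest deficient array for 10 of 10. Both held for 15.9% of all genes tested and for 43.5% of 46 other immediate early genes, described below. Control replicate 2 was the lowest control for 8 of 10, against 44.9% of all genes and 63% of those 46. Averaged over the 10 genes and set relative to the control mean, the level was 0.36, -0.37 and 0.01 in control replicates 1, 2 and 3 and -0.37, -1.02 and -1.08 in deficient replicates 1, 2 and 3. Deficient replicate 1 and control replicate 2 thus stood at the same mean level. Because the genes share these arrays and move together on them, the 10 are not 10 independent observations of the same difference.

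Nearest to the mean profile of the 10 genes over the 6 arrays, by the mean absolute difference of values centred on each gene's own mean, were Hbegf at 0.09, Sorl1 at 0.09, Tk2 at 0.09, Tcp11l2 at 0.10 and Plcd1 at 0.11. The 10 genes themselves lay at 0.12 (Zfp36) to 0.54 (Fosb) from their mean. Hbegf, a ligand of the EGF receptor, read 13.58, 12.63 and 13.06 in the controls and 12.54, 11.86 and 11.87 in the deficient mice. Its groups did not overlap, it was 1.99-fold lower with a limma adjusted p of 0.190, and its other probe set changed by -1.13. Sorl1 is a sorting receptor, Tk2 the mitochondrial thymidine kinase and Plcd1 a phospholipase C. Their changes lay between -0.84 and -0.74 on the probe sets used. Other probe sets changed by -0.55 and -0.032 for Sorl1, the latter below 5 on every array, and by -0.56 for Plcd1. The nearest genes were picked for closeness over all 6 arrays, so their lower deficient means follow from the choice and are no separate result. Tk2 and Tcp11l2 each read at or below 5 on 2 deficient arrays, the level of the filter.

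A broader list of 54 other immediate early genes, drawn up with earlier results of these data known, had 46 tested members. Of these 3 fell and 0 rose over all genes, beside 1.98% and 0.112% of all genes tested. At an unadjusted p below 0.05, 13 were lower and 0 higher, where 11.3% and 5.6% of all genes were. The mean was lower for 34, against 54.6% of all genes, with a median change of -0.45. The genes that fell were Pim1, Cebpb and Egr3. Pim1, a serine/threonine kinase induced by cytokines, read 10.60, 10.54 and 10.52 in the controls and 9.54, 9.44 and 9.71 in the deficient mice, 1.99-fold lower (limma adjusted p = 0.0232). Cebpb, a transcription factor of inflammation and metabolism, read 12.35, 12.48 and 12.13 against 11.12, 11.41 and 11.44, also 1.99-fold lower (limma adjusted p = 0.0421). On these probe sets the 2 genes varied within each group by at most 0.35, much less than Fosb or Nr4a1. The other Pim1 probe set read 8.79, 7.80 and 8.58 against 7.30, 7.82 and 7.64, with overlapping groups and a change of -0.80. The other Cebpb probe set read 8.84, 8.92 and 8.53 against 6.62, 7.57 and 7.50, a change of -1.53. Egr3, a paralog of Egr1, read 7.35, 5.88 and 5.67 in the controls and 3.82, 3.94 and 3.67 in the deficient mice, below the level 5 used as the filter. It was at least 2.46-fold lower against that level (limma adjusted p = 0.0359), while its other probe set read below 2 on every array. Each call depends on the full set of arrays: Pim1 passed in 1 of the 6 fits that left out 1 array (without deficient replicate 3), Egr3 in 1 (without control replicate 1) and Cebpb in 0, with limma adjusted p up to 0.114, 0.141 and 0.144.

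Among the paralogs of the 10 genes, named here after their values were seen, Egr2 had a larger change than any of the 10. Egr2 read 10.40, 7.35 and 9.84 in the controls and 6.88, 5.95 and 6.61 in the deficient mice, a change of -2.72 ± 0.75 (limma adjusted p = 0.164), and its other probe set changed by -3.08. The deficient arrays all lay below the controls, whose own spread was 3.05. Nr4a2, a paralog of Nr4a1, changed by -1.59 ± 0.49 (limma adjusted p = 0.197) on the probe set used. Its 5 other probe sets changed by -1.86 to -0.015, the smallest being one that read near 1 on every array. Those of them above 5 on every array changed by -1.86, -1.60 and -0.26, and another below 5 by -0.25. The size of the Nr4a2 change thus depended on the probe set. Of 12 listed bZIP relatives of Fos and Jun 9 were tested, 0 passed in the limma fit and 0 were below 0.05 before adjustment. The mean was lower for 8, against 54.6% of all genes, and the median change was -0.046. Jund was at -0.034 and Fosl2 at -0.0040, while Maff was at -0.44 and Jdp2 and Atf3, with the smallest p of that list, at -0.56 and -0.61. Of 16 listed ERK feedback genes and relatives of Zfp36 and Dusp1, 12 were tested and 0 passed with limma. At an unadjusted p below 0.05, 2 were lower and 1 higher, where 11.3% and 5.6% of all genes were. Zfp36l1 and Zfp36l2 changed by -0.16 and 0.47 on the probe sets used, and another probe set of Zfp36l1 by -0.56. Spry1, an inhibitor of receptor tyrosine kinase signalling, read 7.56, 6.20 and 7.37 against 6.18, 4.94 and 4.87. Dusp6, the phosphatase of ERK, read 11.84, 11.88 and 12.38 against 13.17, 12.40 and 12.59, with all deficient arrays above all controls and a change of 0.69 ± 0.26 (limma adjusted p = 0.260).

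**Figure D3:**
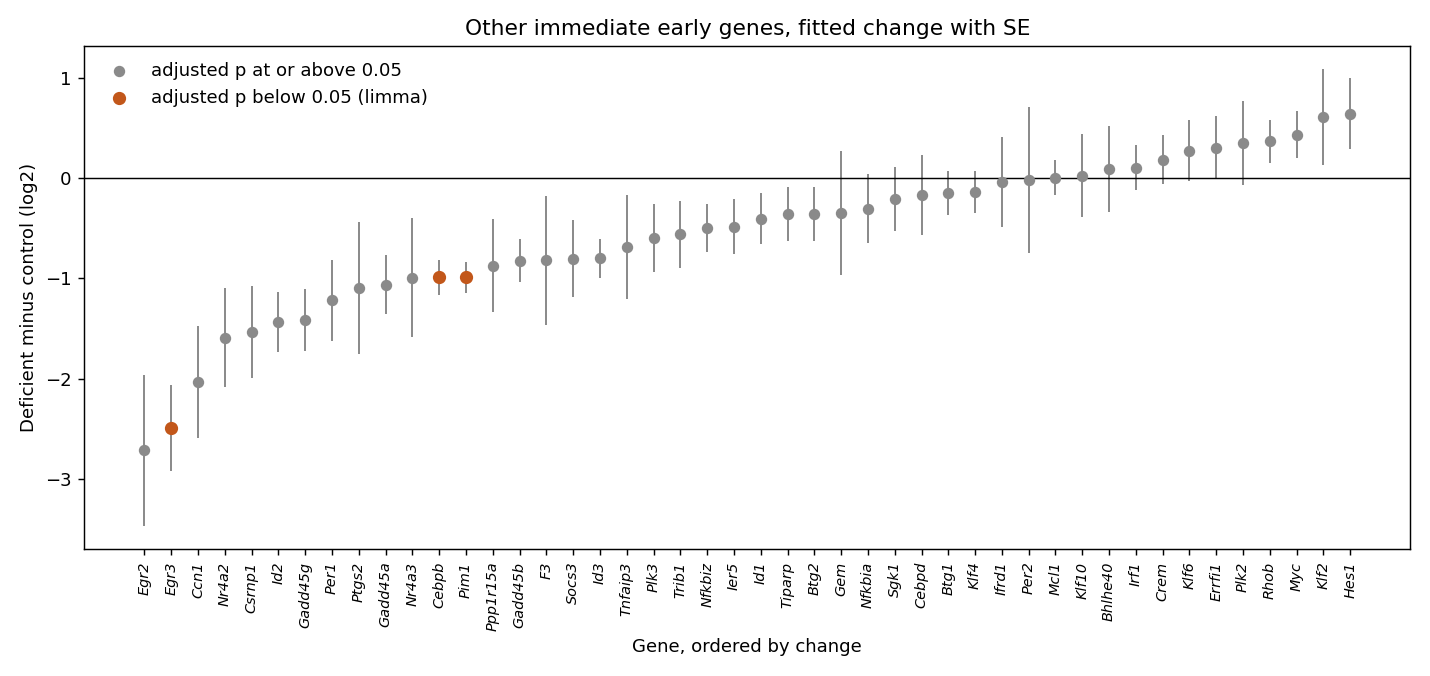
Fitted change (deficient minus control, log2) with SE for the 46 tested genes of the broader list, ordered by size, with genes that passed the threshold in orange. Most points lie below 0, and the 3 orange genes, Egr3, Cebpb and Pim1, lie among genes such as Egr2 and Ccn1 that have wider errors.

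Of the 15 listed genes of SRF, its cofactors and CREB, 11 were tested and 2 fell, Srf and Elk3, where 1.98% of all genes tested fell. Srf read 8.93, 7.98 and 8.31 in the controls and 6.44, 7.14 and 6.55 in the deficient mice, 3.23-fold lower (limma adjusted p = 0.0417), and its other probe set changed by -1.06. Unlike the 10 genes, Srf was lowest in deficient replicate 1, and it passed in 0 of the 6 fits that left out 1 array (limma adjusted p up to 0.140). Elk3 read 5.71, 5.21 and 5.70 in the controls and 3.77, 3.62 and 3.64 in the deficient mice, at least 1.45-fold lower against the level 5 (limma adjusted p = 0.0042), and passed in 6 of those 6 fits. Its 3 other probe sets read below 3 on every array. The coactivators Mrtfa and Mrtfb were at -0.40 and 0.20, and Creb1 at -0.0011. Of 16 tested actin genes known as SRF targets, 1 fell, Cnn2, a calponin that leukocytes also express, by 4.73-fold (limma adjusted p = 0.0098), and 0 rose. At an unadjusted p below 0.05, 2 were lower and 4 higher, where 11.3% and 5.6% of all genes were, and the median change was 0.02. Cnn2 passed in 4 of the 6 fits that left out 1 array, not without control replicate 1 or 3 (limma adjusted p = 0.0576 and 0.0502), nor with no filter on low values (0.0804). Of 15 tested MAP kinases and their upstream kinases 0 passed with limma, 1 was higher and 0 lower at an unadjusted p below 0.05, and the median was 0.07, with Mapk13 and Map2k1 at 0.52 and 0.53.

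Lymphocytes, which lie between the epithelial cells and also express several early genes, had clearly lower marker levels in the deficient mice. Of 13 tested markers of T cells and intraepithelial lymphocytes, 11 fell (Ccl5, Cd3d, Cd3g, Cd7, Cd8a, Coro1a, Gzmb, Il2rb, Itgae, Nkg7 and Ptprc), where 1.98% of all genes tested did. On a deficient array 7 of the 13 read at or below 5, so that their change is a bound. With values below 5 set to 5, the median change was -2.82, and their mean level on the deficient arrays was at most -3.39, -2.87 and -2.39 against -0.06 to 0.09 on the controls. Of the deficient arrays, replicate 1 was lowest in the mean of these markers and highest in each of the 10 immediate early genes. It was not the lowest for Cd3d and Il2rb, which read below 5 on all deficient arrays. Of 9 tested myeloid markers 4 fell (Adgre1, Fcer1g, Itgax and Tyrobp), and with values below 5 set to 5 their median change was -1.10 and their mean level ran from -0.30 to 0.40 in the controls and from -1.51 to -0.96 in the deficient mice. Of 5 tested stromal markers 0 passed with limma and 3 were lower at an unadjusted p below 0.05, where 11.3% of all genes were. Of 2 tested B and plasma cell markers 0 passed, with Jchain at -1.62 and Blnk at 1.31. At or below 5 on all arrays were Cd8b1 and Cd2 of the T cell list, Itgam and Cd68 of the myeloid list, Cd79a, Cd79b and Mzb1 of the B and plasma cell list and 6 of 11 stromal markers, Pecam1, Cdh5 and Des among them. The part that these cells play in the lower values of the early genes was not tested, and in bulk RNA fewer cells of a type and less RNA per cell cannot be told apart. All 11 epithelial markers read above 5 on every array and 0 passed with limma. At an unadjusted p below 0.05, 0 were lower and 2 higher, beside 11.3% and 5.6% of all genes, and their median change was 0.19.

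**Figure D4:**
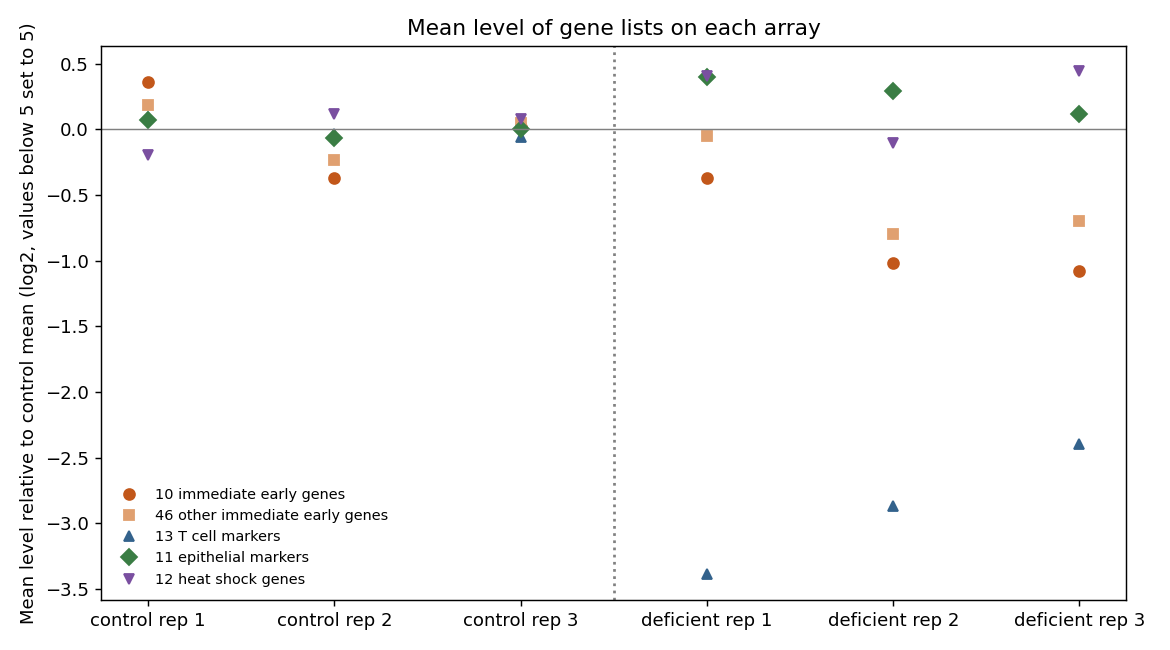
Mean level of gene lists on each array (log2, relative to the mean of the 3 controls, with values below 5 set to 5), 1 marker per list and array. On the deficient arrays the 10 immediate early genes lie at -0.37, -1.02 and -1.08 and the T cell markers at -3.39, -2.87 and -2.39, which are upper bounds, while epithelial markers lie at or above 0.11.

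Measures of handling and RNA quality were set beside the early genes in the same way. Of 12 tested heat shock genes, which cell isolation can also induce, 0 passed with limma. At an unadjusted p below 0.05, 0 were lower and 2 higher, where 11.3% and 5.6% of all genes were. Hspd1 and Hsp90aa1 were at 0.77 and 0.46, and the median of the 12 genes was 0.27. Their mean level was -0.20, 0.12 and 0.08 on the control arrays and 0.40, -0.10 and 0.44 on the deficient arrays. The difference between the 3′ and 5′ control probe sets of Gapdh, which grows as RNA is degraded, was 1.62, 4.11 and 1.03 in control replicates 1, 2 and 3 and 1.24, -0.29 and 0.86 in deficient replicates 1, 2 and 3. Control replicate 2, which stood apart there and in the same measure for beta-actin (3.16 against 0.88 to 1.72), was also the lowest control for 8 of the 10 early genes. In the same measure it read 6.95 against 5.59 to 6.52 for the control probe sets named PyruCarb, and for those named TransRec it lay within the range of the other arrays (1.39 against 1.28 to 1.68). The part of RNA quality in the values of the early genes was not tested. Correlations between arrays over all genes tested ran from 0.903 to 0.980, and no scan date or batch could be tested.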

How the data were processed

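Expression was measured on 6 Affymetrix arrays, 1 per mouse. The deposited values are log2 expression per probe set. Per the submitters' processing notes, the authors used Partek 6.5 and GCRMA, with roles unstated. The scale is read as log2 because values ran from 0.42 to 16.35. GCRMA models background, so changes near its floor depend on that model. Array number limits the precision.

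The 64 control probe sets were left out. For each of 18193 genes the probe set of highest mean was used, and the 8893 above 5 on at least 3 arrays were tested. The test was limma 3.58.1 (R 4.3.3, lmFit and eBayes without covariates), with Benjamini-Hochberg adjustment over all genes and a threshold of 0.05. The code was first run on simulated data with noise drawn independently for each gene, unlike the 10 early genes, which moved together. That run does not test the calls made here. Genes and lists (221 entries, 209 on the array under a single symbol) were chosen with earlier results of these data known. Named genes are the 10 members, called genes of each list or else the 2 with the smallest p, and the 5 nearest profiles. Others, such as Egr2, Nr4a2, Nr4a3, Ccn1, Jund, Fosl2, Maff, Zfp36l1, Zfp36l2, Mrtfa, Mrtfb and Creb1, were named outside this rule with their values known. A fold against a group at or below 5 on all arrays is given as "at least". No paired analysis was used for the main results, since same-numbered arrays did not deviate together over all genes tested (correlations 0.05, -0.29 and 0.00). The 10 early genes differed in this, as replicate 1 was the highest array of both groups for 10 of 10. A fit with the replicate number as a block (replicate block) is given below. Promoters come from RefSeq (GRCm38.p6).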

Additional observations from a re-analysis of the deposited data

How the results depend on the processing

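Over all alternatives 9 of the 10 genes kept a negative change, and the median of the 10 ran from -1.03 to -0.79 over the settings that kept all arrays. Ier3 turned to -0.070 with array weights and to -0.27 without deficient replicate 1. Genes called numbered 186 with the settings of the report, 293 with array weights, 85 with no filter on low values and 117 with the mean of the probe sets of a gene. Of the 10 genes 4 passed with array weights (Fosb, Junb, Zfp36 and Ier2, limma adjusted p = 0.0349, 0.0127, 0.0191 and 0.0409), and 0 with the other settings that kept all arrays apart from the replicate block. Those weights were estimated at 0.41 to 3.31, lowest for deficient replicate 1 and highest for control replicate 3. With the replicate block 1 passed (Nr4a1, limma adjusted p = 0.0481), but the replicate numbers are not shown to pair the mice. Of the broader list, 7 passed with array weights and 1 each with no filter, with the mean of the probe sets and with the replicate block, against 3. Leaving out 1 array in turn gave 93 to 239 genes called, 0 to 1 of the 10 genes, 0 to 2 of the broader list, and a median change of the 10 genes from -1.08 to -0.70. The counts of genes called were lowest without control replicate 1 (93), deficient replicate 2 (101) and control replicate 3 (104). The cause of these differences was not tested. With 3 arrays per group the exact permutation test of a gene cannot give a two-sided p below 0.1.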
